A study of Mus musculus with 2 samples.

Results

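Serpins are protease inhibitors that trap their target enzyme by a large change of shape, and 41 serpin genes were described here across the cell classes of thymic stroma. The members were all genes whose symbol is Serpin followed by a clade letter from a to i and a number, with an optional further letter, and that had at least 20 UMIs (unique molecular identifiers, counted transcripts) over both libraries. Of 62 such symbols among 32285 features, 41 passed and 21 did not. Serpinb1c, with 21 UMIs, lay just inside this limit and Serpina5, with 18, just outside.

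The tissue was total thymic stroma after CD45 depletion, from mice of the genotype E2F_M11, in which CRISPR-Cas9 had removed 2 E2F binding sites from the proximal promoter of Foxn1, the factor that drives thymic epithelial differentiation. It was sequenced as 2 droplet libraries (10x Genomics 3' chemistry), which both carry the deletion, and no library without it was analysed here. Age, strain and the number of animals are not given in the labels. The series asks how E2F proteins bear on an undersized or overgrown thymus, whereas the values below compare cell classes within the E2F_M11 thymus (n = 2 libraries) and measure no effect of the deletion.

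Inhibitory serpins carry an exposed loop that a serine or cysteine protease cuts, after which enzyme and serpin stay joined. Clade A genes encode mostly secreted plasma proteins of the liver, clade B genes (the ov-serpins) mostly intracellular ones, and clade H a collagen chaperone that inhibits no protease. In the thymus, medullary epithelial cells that express the regulator Aire transcribe many genes of other tissues, and mimetic epithelial cells resemble peripheral cell types such as tuft cells, keratinocytes or the microfold cells of mucosal epithelium.

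Cells were assigned to classes by marker genes other than serpins. The epithelial classes were cTEC-like (cortical; 66 and 99 cells in libraries 1 and 2), Ccl21a-high medullary (411 and 489), Aire-expressing (243 and 205), tuft-like (58 and 69), keratinocyte-like (33 and 102), microfold-like (25 and 23) and secretory-like (24 and 68). Fibroblasts were split into Pi16 (423 and 334), Cxcl14/Col15a1 (381 and 427), Inmt/Penk (190 and 193) and Postn (215 and 106) subtypes, each named after its marker genes. Mesothelial-like (94 and 25), endothelial-like (86 and 72) and thymocyte-like cells (105 and 809) completed the fit. Other mimetic-like (20 and 13) and mural-like cells (18 and 23) were too few to be tested. All fixed markers were highest in their own class for microfold-like (7 of 7), keratinocyte-like (9 of 9), tuft-like (13 of 13), Pi16 (8 of 8) and mesothelial-like cells (8 of 8). For secretory-like cells this held for 6 of 7 markers. For Cxcl14/Col15a1, Inmt/Penk and Postn fibroblasts it held for 2 of 5, 3 of 5 and 1 of 4. The other classes counted here were gated on the same whole lists, which favours high counts. These subtypes were gated on Cxcl14 and Col15a1, on Inmt and Penk, and on Postn alone. The counts therefore do not test the classes and cannot be compared between them.

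The depth was 41075328 UMIs in library 1 (5110 barcodes, 3588 kept) and 42583831 UMIs in library 2 (19163 barcodes, 8186 kept). The kept cells had a median of 8727 and 1874 UMIs, and 30 barcodes occurred in both libraries. Cells of library 2 were shallower in every epithelial class of the fit (25 cells with a median of 9825 UMIs against 23 cells with 1364 for the microfold-like class), so that a few deep cells weigh heavily in its sums. Levels are CPM, the UMIs of a gene scaled to a common total of UMIs per class, which compare a gene between classes. The thymocyte-like class, which should lack most serpins, is given as one reading of free RNA and sets no upper limit for the other classes. There the 41 genes together had 114 and 141 CPM. Markers of fibroblasts, the main source of several members, summed to 68.0 to 332 CPM in the epithelial classes of library 1 and 126 to 773 CPM in library 2, against 204 and 199 CPM in thymocyte-like cells and 18022 to 33753 CPM in fibroblasts.

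The family's transcripts were most abundant in microfold-like cells, where all members together reached 14446 and 18122 CPM. Postn fibroblasts followed with 8241 and 7902 CPM. Inmt/Penk fibroblasts had 6454 and 6161 CPM, Cxcl14/Col15a1 fibroblasts 6061 and 5706 CPM, Pi16 fibroblasts 4740 and 5765 CPM, and mesothelial-like cells 3534 and 2951 CPM. Among epithelial classes, the others lay far lower, with the least in tuft-like cells (362 and 576 CPM). Highest of these others were keratinocyte-like cells in library 1 (2235 and 2219 CPM) and secretory-like cells in library 2 (1973 and 3273 CPM). A few genes made up most of each sum. In microfold-like cells Serpinb6a gave 47.8% and 58.5% of the family's transcripts and Serpinb1a 42.6% and 32.0%. In Postn fibroblasts Serpine2 alone gave 50.8% and 54.9%. Of all 248065 member UMIs, 58.9% lay in gated cells.

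**Figure D1:**
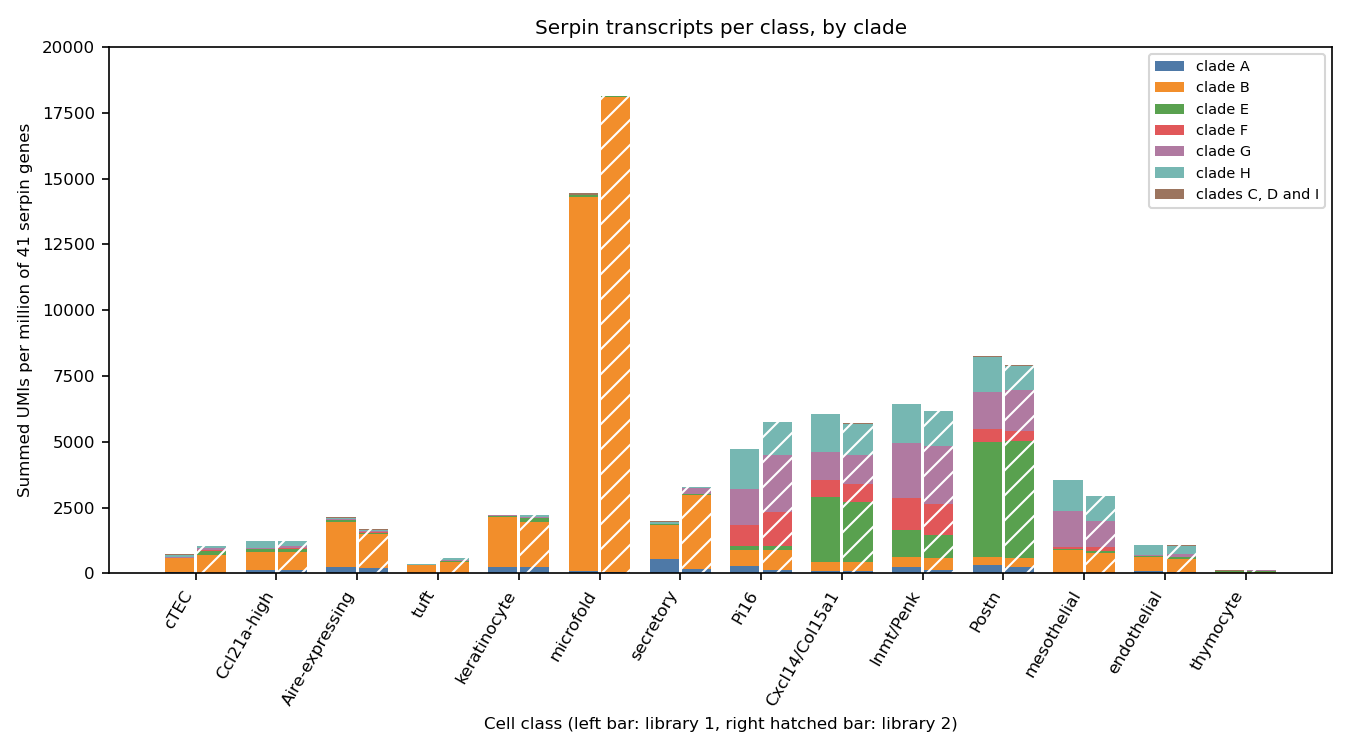
Summed CPM of the 41 serpin genes (vertical axis, linear from 0) in 14 cell classes, stacked by clade, with library 1 as the plain left bar and library 2 as the hatched right bar. Clade B fills nearly all of the microfold-like bars (14446 and 18122), while clades E, F, G and H fill most of the fibroblast bars.

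Of 19 clade B members, 17 had their highest mean level in an epithelial class, 1 elsewhere, and Serpinb6d had no UMI in any class. Of 14 clade A members, 9 were highest in epithelium and 5 elsewhere. The members of clades E, F, G and H were all highest in a fibroblast subtype. Over 40 members with UMIs in the fitted classes, the class with the highest mean was also the highest in each library for 24. For the rest the leading class differed between the libraries.

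Most members lie in 3 tandem clusters (GENCODE vM21, GRCm38). A run of 9 clade B genes on chromosome 1, from 106861173 to 107610484, held 5 genes whose mean was highest in keratinocyte-like cells. Of these, Serpinb2 and Serpinb3c were highest there in library 1 alone. A second run of 10 clade B genes, on chromosome 13 from 32842092 to 34002794, held 5 whose mean was highest in microfold-like cells. They include the sparse Serpinb1c, at 0 and 11.4 CPM in that class. On chromosome 12, between 103614786 and 104414329, 13 clade A genes were spread over 7 different classes. Neighbours did not always go together. Serpina3c, in the chromosome 12 run, was highest in Pi16 fibroblasts, while the mean of Serpina3j, in the same run, was highest in keratinocyte-like cells. In library 1 Serpina3j was higher in secretory-like cells, at 165.8 against 103 CPM.

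The 250 bases upstream of the RefSeq start (GRCm38.p6 table) were available for 35 members. The AP-1 motif TGANTCA, read on both strands, occurred in 8 of these 35 promoters (22.9%), against 6.75% of 32851 promoters of all genes. Of those 8, 6 belonged to the chromosome 1 cluster (6 of its 8 available promoters), 2 to the chromosome 12 cluster (2 of 11) and 0 to the chromosome 13 cluster (0 of 9). The TATA box letters TATAAA were found in 25.7% of member promoters and 12.4% of all, CCAAT in 37.1% and 33.8%, and GGGCGG (a GC box) in 20% and 32.7%. The other motifs searched were those of SPIB/PU.1 (GAGGAAGT), E2F (TTTCGCGC or TTTGGCGC) and kappaB, also on both strands. They matched 0 of the 35 member promoters and 2.44%, 0.654% and 0.225% of all, from which nothing is drawn about these factors. A match is a description of letters only. The 6 promoters of the chromosome 1 cluster with an AP-1 match are printed in chromosomal order, as these genes come up in the mimetic classes, together with that of Serpinb6a from chromosome 13. Sequences run 5' to 3' on the gene's strand, and capitals mark matches to the 4 motifs spelled out on either strand, none of which overlap another motif. The Serpinb7 window lies 23034 bases inside the GENCODE gene and that of Serpinb11 1116 bases, since the RefSeq starts differ.
Serpinb5 (chr1:106860925-106861174, plus strand): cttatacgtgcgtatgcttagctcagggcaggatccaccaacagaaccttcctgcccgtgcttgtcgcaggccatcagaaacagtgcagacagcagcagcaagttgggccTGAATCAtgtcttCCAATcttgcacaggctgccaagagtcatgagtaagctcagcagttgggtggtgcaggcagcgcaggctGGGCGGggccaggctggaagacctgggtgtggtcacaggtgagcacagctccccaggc
Serpinb12 (chr1:106934199-106934448, plus strand): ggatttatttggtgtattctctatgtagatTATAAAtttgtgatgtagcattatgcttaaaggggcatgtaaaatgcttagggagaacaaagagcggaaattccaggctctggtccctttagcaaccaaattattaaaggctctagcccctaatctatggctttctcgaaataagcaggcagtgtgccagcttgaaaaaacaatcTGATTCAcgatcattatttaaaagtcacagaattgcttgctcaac
Serpinb11 (chr1:107362064-107362313, plus strand): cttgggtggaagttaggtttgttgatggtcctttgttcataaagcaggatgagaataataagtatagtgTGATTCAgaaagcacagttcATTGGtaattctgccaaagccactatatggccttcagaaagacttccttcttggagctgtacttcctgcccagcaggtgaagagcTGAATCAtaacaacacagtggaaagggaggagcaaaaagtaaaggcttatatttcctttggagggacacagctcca
Serpinb7 (chr1:107422439-107422688, plus strand): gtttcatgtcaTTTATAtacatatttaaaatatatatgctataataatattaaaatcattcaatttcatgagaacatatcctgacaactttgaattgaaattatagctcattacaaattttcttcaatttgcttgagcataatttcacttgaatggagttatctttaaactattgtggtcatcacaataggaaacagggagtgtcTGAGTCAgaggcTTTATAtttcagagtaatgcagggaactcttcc
Serpinb2 (chr1:107511173-107511422, plus strand): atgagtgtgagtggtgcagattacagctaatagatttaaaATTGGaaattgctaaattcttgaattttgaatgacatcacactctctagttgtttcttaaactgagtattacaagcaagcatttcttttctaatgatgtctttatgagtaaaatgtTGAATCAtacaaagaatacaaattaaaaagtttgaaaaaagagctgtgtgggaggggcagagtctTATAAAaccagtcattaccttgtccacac
Serpinb8 (chr1:107589756-107590005, plus strand): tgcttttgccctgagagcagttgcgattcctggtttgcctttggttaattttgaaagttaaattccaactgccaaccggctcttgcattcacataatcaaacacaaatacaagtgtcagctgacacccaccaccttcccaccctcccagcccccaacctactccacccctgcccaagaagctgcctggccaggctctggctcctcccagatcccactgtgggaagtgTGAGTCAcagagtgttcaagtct
Serpinb6a (chr13:34002795-34003044, minus strand): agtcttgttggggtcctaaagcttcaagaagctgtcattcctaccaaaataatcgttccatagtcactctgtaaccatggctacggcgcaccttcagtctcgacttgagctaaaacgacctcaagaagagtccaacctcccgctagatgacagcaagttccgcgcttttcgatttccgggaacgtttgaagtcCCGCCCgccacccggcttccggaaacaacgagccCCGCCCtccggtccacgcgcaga

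The first question was how mimetic classes differ from one another in serpins. Of the 41 members, 30 passed the filter on low counts in the fit and the text names them unless said otherwise. Calls are genes whose edgeR adjusted p, over 13573 genes, did not exceed 0.05.

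Microfold-like cells had very high levels of 2 clade B genes. Serpinb6a, an intracellular inhibitor of trypsin-like proteases and cathepsin G, had 6905 and 10601.5 CPM there, against 163 and 141 CPM in keratinocyte-like cells, 225 and 233 CPM in tuft-like cells, and 106 and 400 CPM in secretory-like cells. Both microfold-like values exceed the next class of the same library by 12.3 and 15.3 times. The level in thymocyte-like cells was 20.0 and 26.7 CPM. Serpinb1a, which inhibits neutrophil serine proteases such as elastase, had 6153 and 5797 CPM in microfold-like cells, 8.55 and 7.98 times the next class. Both genes were seen in nearly all cells of the class, Serpinb6a in 23 of 25 and 21 of 23 cells and Serpinb1a in 23 of 25 and 22 of 23. Single deep cells contributed much, as 1 cell held 34.9% of the Serpinb6a UMIs in library 1 and 1 held 35.95% in library 2. Without these cells the Serpinb6a levels were 5049 and 11948.5 CPM. The leading cell of library 2, with 37832 of the 87629 UMIs of the class, also held 39.2% of the Serpinb1a UMIs. It held 70.4% of those of Serpinb9 and 50% of those of Serpinb6b, described below. Without its leading cell in each library Serpinb1a had 5407 and 6205 CPM.

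Against the mean of the other 3 mimetic classes, 7 members were higher in microfold-like cells and 0 lower (9.28% of all genes were called, 6.58% higher and 2.7% lower). The difference was 5.49 log2 units for Serpinb6a (SE 0.28, edgeR adjusted p = 2.19e-11) and 5.18 for Serpinb1a (SE 0.32, adjusted p = 2.06e-10), both in the same direction in either library. Serpinb9, the inhibitor of granzyme B, had 451 and 308 CPM and was 3.11 log2 units higher (SE 0.26, edgeR adjusted p = 2.87e-08). In each library 1 cell held much of it, 78 of 168 and 19 of 27 UMIs, and without these cells the levels were 267 and 161 CPM. Serpinb6b, a close relative of Serpinb6a, had 306 and 297 CPM, against 122.9 and 125 CPM in secretory-like cells, the next mimetic class (3.15 log2 units, SE 0.28). Serpinb12, an inhibitor of trypsin-like enzymes, had 179.8 and 844 CPM and was called at 6.64 log2 units (SE 0.58). Of its 74 UMIs in library 2, however, 69 came from 1 cell, without which the level was 73.7 CPM, and in library 1 it was 102 CPM without the top cell. Serpina10, the protein Z-dependent inhibitor, rested on 11 and 4 UMIs. Serpini1 (neuroserpin) was called from 15 UMIs in library 1 and 0 in library 2, and reversed in library 2 alone. The summed macrophage and neutrophil markers in microfold-like cells were 1098 and 1164 CPM, mainly Lyz2 and S100a8, with C1qa, C1qc and Adgre1 at 0. Ptprc, the CD45 gene that blood cells express, had 69.8 and 148 CPM, against 58.2 and 129 CPM in Ccl21a-high cells. Tyrobp had 24.2 and 0 CPM, Csf1r 10.7 and 0 CPM and C1qb 8.05 and 0 CPM. Their part in these results was not tested.

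Keratinocyte-like cells were marked by a different set, mostly from the chromosome 1 cluster. Serpinb2 (PAI-2, an inhibitor of urokinase) had 751 and 706 CPM there. Secretory-like cells had 283 and 794 CPM of Serpinb2, so the order of both classes turned between the libraries. Serpinb7, known from inherited palmoplantar keratoderma, had 151 and 124 CPM, and Serpinb5 (maspin) 122 and 101 CPM. For Serpinb7, 42 of 88 UMIs in library 1 came from 1 cell, without which the level was 81.5 CPM. Serpinb5 was close to absent from the other mimetic classes, where its levels ran from 0 to 7.24 CPM. Against the other mimetic classes, 9 members were higher and 2 lower (8.48% of all genes called; 6.95% higher, 1.53% lower). Serpinb5 was 5.34 log2 units higher (SE 0.52, edgeR adjusted p = 8.28e-07), Serpinb7 3.57 (SE 0.54, adjusted p = 0.000151) and Serpinb2 2.91 (SE 0.48, adjusted p = 0.000298). Serpina3j had 103 and 98.9 CPM and was 5.10 log2 units higher (SE 1.16). It came from 8 and 15 cells, of which 1 held 25 of 60 UMIs in library 1 and 1 held 21 of 59 in library 2, and without these cells the levels were 64.1 and 69.4 CPM. It was also seen in secretory-like cells of library 1 at 165.8 CPM, but 54 of those 58 UMIs lay in 1 cell. Serpinb8, an inhibitor of furin, had 75.6 and 43.6 CPM and was 2.16 log2 units higher (SE 0.54). The calls of Serpina9, Serpinb12, Serpinb3c and Serpina7 rest on few cells. For Serpinb3c, 15 of 18 UMIs in library 1 came from 1 cell and library 2 had 1 UMI. As no UMI of it was seen in the other mimetic classes, its fold is given against a floor of 3 UMIs summed over them, at least 13.1-fold higher. Lower in keratinocyte-like cells were Serpinb6a (-2.34 log2 units, SE 0.35) and Serpinb9 (-1.11, SE 0.31). For both, the mean they were set against includes the microfold-like class. Serpinb9, at 53.3 and 38.6 CPM, exceeded its tuft-like levels in both libraries but not its secretory-like ones (131.5 and 106 CPM). Serpinb6a exceeded its secretory-like level in library 1 alone and stayed below its tuft-like levels.

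**Figure D2:**
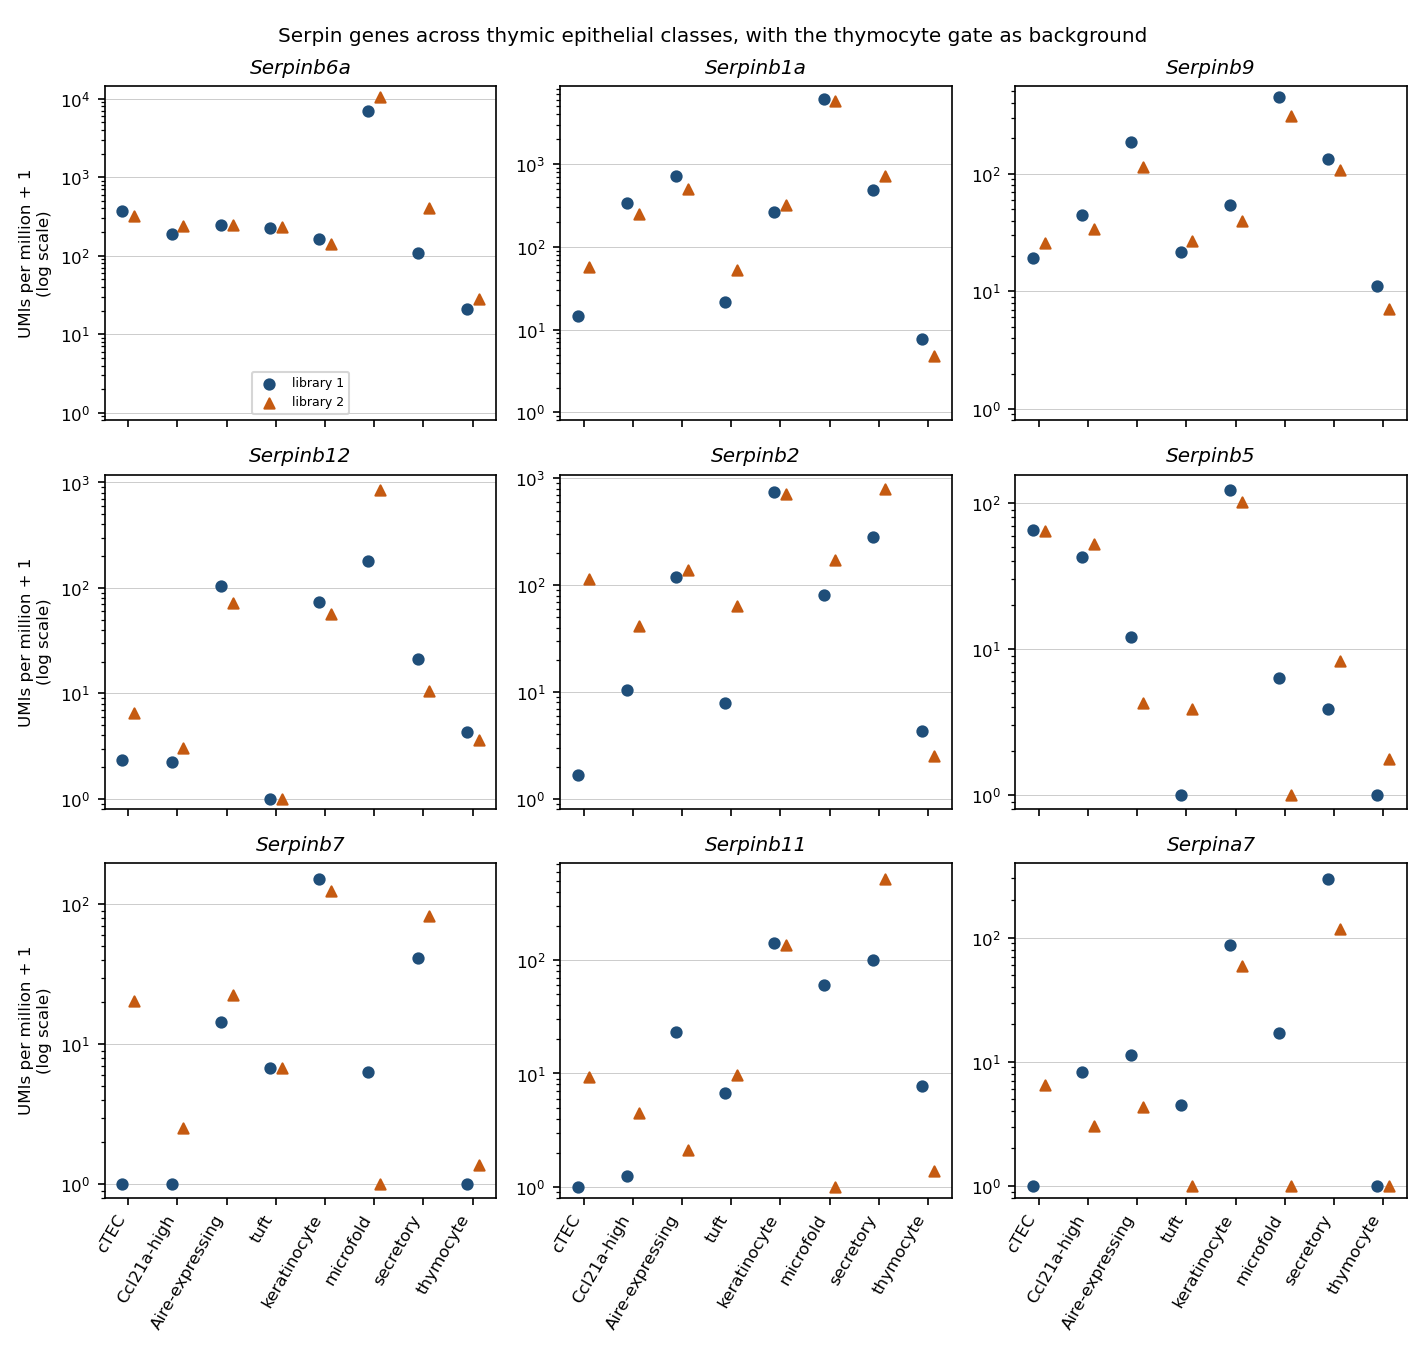
CPM plus 1 (vertical axes, log scale) of 9 serpin genes in 7 epithelial classes and in thymocyte-like cells, with circles for library 1 and triangles for library 2. Serpinb6a and Serpinb1a peak in the microfold-like class (6905 and 10601.5, and 6153 and 5797), Serpinb5 and Serpinb7 in the keratinocyte-like class.

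In secretory-like cells Serpinb2 had 283 and 794 CPM and did not pass the test against the other mimetic classes (edgeR adjusted p = 0.059). Serpinb11, a clade B gene, had 100.1 and 519 CPM, with UMIs in 6 of 24 and 36 of 68 cells. Its keratinocyte-like levels were 141 and 136 CPM (78.4 CPM in library 2 without 1 cell that held 37 of 81 UMIs), so the order of both classes turned between the libraries. Serpina7, which encodes the thyroxine-binding globulin, had 297 and 116 CPM in secretory-like cells. These levels came from 3 cells in either library, and 1 cell of library 2 held 46 of 48 UMIs, without which the level was 5.004 CPM. In this class 4 members were higher than in the other mimetic classes and 1 lower (2.8% of all genes called; 2.34% higher, 0.464% lower). They were Serpina7 (4.02 log2 units, SE 0.45, edgeR adjusted p = 8.18e-05), Serpina3i (3.61, SE 0.92, from 10 UMIs), Serpinb11 (2.97, SE 0.72) and Serpinb6b (1.27, SE 0.29), with Serpinb6a lower (-1.43, SE 0.33). The mean set against Serpinb6a includes the microfold-like class. In library 2 its secretory-like level, 400 CPM (243 CPM without the top cell), exceeded those of tuft-like (233 CPM) and keratinocyte-like cells (141 CPM). In library 1 its 106 CPM lay below both. With clusters in place of gates the Serpina7 value turned to -1.09 log2 units.

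Tuft-like cells had the least serpin RNA of any epithelial class, and 4 members reached 10 CPM in both libraries. Serpinb6a made up 62.1% and 40.5% of it, at 225 and 233 CPM. Against the other mimetic classes 12 members were lower and 0 higher (17.9% of all genes called; 8.3% lower, 9.63% higher). Serpinb1a had 20.7 and 51.9 CPM and was 5.09 log2 units lower in tuft-like cells (value -5.09, SE 0.49, edgeR adjusted p = 1.61e-07). In library 2, 13 of its 18 UMIs came from 1 cell. Serpinb6b had 11.5 and 5.76 CPM (-3.68, SE 0.40) and Serpinb9 20.7 and 25.9 CPM (-2.65, SE 0.35). No UMI of Serpinb12 was found in tuft-like cells, at least 38.2-fold less than in the other mimetic classes pooled, against the floor of 3 UMIs. For Serpina7 the pooled ratio of the other classes to tuft-like cells was 40.9 (exact 95% interval 13.8 to 199.9, counting error only) from 3 UMIs, and for Serpinb5 69.2 (12.2 to 2755) from 1 UMI. The remaining lower members were Serpinb2, Serpinb6a, Serpinb8, Serpinb11, Serpina12 and Serpina3i, the last at 0 UMIs. For Serpinb6a the mean it was set against includes the microfold-like class. Its tuft-like levels exceeded the keratinocyte-like ones (163 and 141 CPM) in both libraries and the secretory-like one in library 1 (106 CPM). Serpina12, at 1 UMI, lost its direction with clusters in place of gates (0.17 log2 units).

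The next question was which serpins go with Aire. In Aire-expressing cells 17 members reached 10 CPM in both libraries, more than in any other class, and 35 of 41 had a UMI in both libraries. This class also held the most UMIs of any epithelial class in library 1 (4899828, against 4087299 in Ccl21a-high cells), though not in library 2 (1818168 against 1985462), and the part of depth in these counts was not tested. Its members ranged from widely shared clade B genes to liver and plasma genes found in few cells.

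Against the mean of cTEC-like and Ccl21a-high cells, 19 members were higher and 5 lower, 80% of the 30 tested (38.7% of all genes called; 22.7% higher, 15.9% lower). The median log2 fold of the 30 was 2.49, beside 0.03 for all genes. Members that passed the filter through this class alone had to be higher, so count and median describe these 30 only. The same holds for the counts of called members in single mimetic classes above.

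Among broadly seen genes, Serpinb1a had 720 and 496 CPM in Aire-expressing cells, 340 and 251 CPM in Ccl21a-high cells and 13.6 and 55.6 CPM in cTEC-like cells (2.88 log2 units higher, SE 0.36, edgeR adjusted p = 2.07e-06). Serpinb6b had 178 and 147 CPM against 46.2 and 46.8 CPM in Ccl21a-high cells (2.42, SE 0.24), and Serpinb9 186 and 113 CPM against 43.3 and 32.7 CPM (2.55, SE 0.25). Serpina12 (vaspin, an adipose-tissue inhibitor of kallikrein 7) had 89.8 and 93.5 CPM, with no UMI in cTEC-like cells and 5.63 and 15.6 CPM in Ccl21a-high cells. It was 6.65 log2 units higher (SE 0.73, edgeR adjusted p = 5.15e-07), and its UMIs lay in 114 of 243 and 66 of 205 cells. Serpinb12 had 104 and 71.0 CPM against 1.22 and 2.01 CPM in Ccl21a-high cells (5.62, SE 0.51, adjusted p = 7.65e-08). Here the UMIs came from 67 and 33 cells, of which no single cell held more than 13.95%. Serpinb6a did not differ beyond the error of the test (246.9 and 248 CPM against 189 and 239 CPM in Ccl21a-high and 375 and 322 CPM in cTEC-like cells).

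Several genes best known from liver, plasma or single organs were seen in few Aire-expressing cells. Serpinc1 (antithrombin) had 22.0 and 17.6 CPM, from 108 UMIs in 49 cells and 32 UMIs in 20 cells, and was 3.80 log2 units higher than in the other classes (SE 0.71, edgeR adjusted p = 0.000197). Serpina9, known from germinal-centre B cells, had 18.2 and 15.4 CPM from 23 and 11 cells (5.77, SE 1.02). B cell markers summed to 38.98 and 59.95 CPM in this class, against 3.91 and 19.6 CPM in Ccl21a-high cells, and their part in the Serpina9 value was not tested. Serpina11 had 23.7 and 2.20 CPM, with 116 UMIs in 28 cells of library 1 and 4 UMIs in 3 cells of library 2, and did not pass the filter on low counts. For other members, single cells carried the level. In library 1, 1 of 243 cells held 38 of 51 UMIs of Serpinb6c, 1 held 21 of 39 UMIs of Serpinb6e, 1 held 26 of 41 UMIs of Serpinb3a, and 1 held 47 of 108 UMIs of Serpinb11. Serpinb3c, related to human squamous cell carcinoma antigens, had 88 UMIs in 10 cells and 12 UMIs in 4 cells, and 0 in both other classes (at least 39.2-fold higher against the floor of 3 UMIs). Serpina10 was called from 15 UMIs in library 1, with 0 in library 2. Serpinb11 had 1.10 CPM in library 2, below both other classes, and turned to -1.35 log2 units in that library alone.

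Other called members that were higher included Serpinb2, Serpinb7, Serpinb8, Serpina3f, Serpina3g, Serpina3j, Serpina7 and Serpini1, between 1.65 and 4.50 log2 units. Serpina7 rested on library 1 (0.06 log2 units in library 2 alone). Serpina3g, an intracellular inhibitor of cathepsins in activated T cells, had 80.4 and 56.1 CPM, close to 55.8 and 48.9 CPM in Ccl21a-high cells, beside 12.9 and 8.33 CPM in cTEC-like cells. The 5 lower members were Serpina3n (-2.91, SE 0.50), Serpinb5 (-2.63, SE 0.40), Serpinh1 (-1.66, SE 0.47), Serpinf1 (-1.48, SE 0.52) and Serpina3i (-0.98, SE 0.36). Serpinb5 had 11.02 and 3.30 CPM in Aire-expressing cells, 63.9 and 63.9 CPM in cTEC-like and 41.8 and 51.9 CPM in Ccl21a-high cells. Serpinh1 was highest among epithelial classes in Ccl21a-high cells, at 254 and 204 CPM. Macrophage and neutrophil markers summed to 3033 and 2831 CPM in Aire-expressing cells, against 130 and 258 CPM in Ccl21a-high cells. S100a8, S100a9 and Lyz2 made up most of this sum and were among the 10 leading genes of the class. Ptprc had 35.3 and 74.8 CPM, no more than the 58.2 and 129 CPM in Ccl21a-high cells, while C1qa had 18.0 and 72.1 CPM and C1qb 46.5 and 69.9 CPM. The part of such cells in the serpin levels was not tested.

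**Figure D3:**
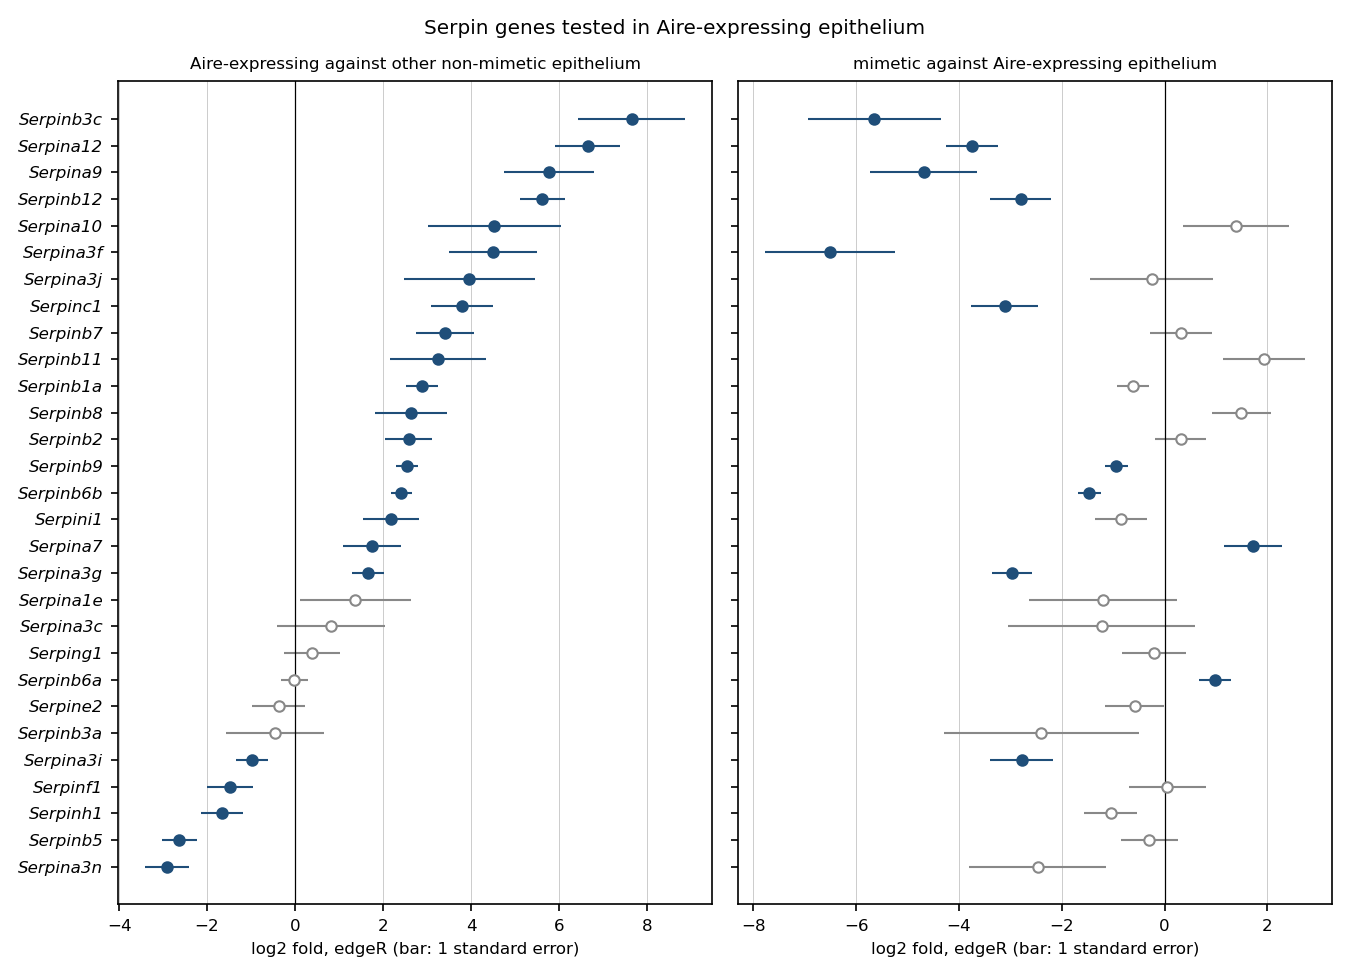
Log2 folds (horizontal axes, with bars of 1 standard error) of tested serpin genes, for Aire-expressing against other non-mimetic epithelium (left) and for mimetic classes against Aire-expressing cells (right). Filled points passed an edgeR adjusted p of 0.05; on the left most of them lie above 0, on the right those of Serpinb6a and Serpina7 (0.98 and 1.72) alone.

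Mimetic classes, averaged over the tuft-like, keratinocyte-like, microfold-like and secretory-like classes, were then set against Aire-expressing cells. Both comparisons share the Aire-expressing sums, so the 2 sets of folds are not independent. Of the members, 11 were lower and 2 higher (23.4% of all genes called; 16.2% lower, 7.22% higher). Lower members included Serpina12 (-3.75 log2 units, SE 0.50, edgeR adjusted p = 1.51e-05), Serpina3g (-2.97, SE 0.39), Serpinc1 (-3.11, SE 0.64), Serpinb6b (-1.47, SE 0.22), Serpinb12 (-2.80, SE 0.60) and Serpinb9 (-0.94, SE 0.22). Serpina9, Serpinb3c, Serpina3i and Serpina3f were lower too. Serpina3f had 55 UMIs in Aire-expressing cells and none in any of the mimetic classes, at least 9.87-fold less against the floor of 3 UMIs. Higher were Serpinb6a (0.98, SE 0.30, adjusted p = 0.0222) and Serpina7 (1.72, SE 0.56, adjusted p = 0.0339). The comparison averages log levels over the 4 classes with equal weight, so a class without a UMI pulls the mean down. Serpinb12 and Serpinb9 were lower in the mimetic mean yet highest of all classes in microfold-like cells. For Serpinb12 this lead rested largely on 1 cell in each library. Without the top cell of each class its microfold-like levels were 102 and 73.7 CPM, against 96.9 and 61.6 CPM in Aire-expressing cells. Serpinb6a exceeded its Aire-expressing levels of 246.9 and 248 CPM in both libraries in microfold-like cells alone among the 4. The Serpina7 value turned negative with stricter gates (-0.95) and with clusters (-0.65).

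In fibroblasts 3 members were abundant in every subtype. Serpinh1 (HSP47), the chaperone of collagen in the endoplasmic reticulum, ran at 1335 to 1533 CPM in the 4 subtypes of library 1 and 930 to 1307 CPM in library 2. Serping1, the C1 inhibitor of the complement and contact systems, had 1076 to 2102 CPM and 1100 to 2209 CPM. Serpinf1 (PEDF), a secreted protein that blocks angiogenesis and inhibits no protease, had 475 to 1216 CPM and 387 to 1285 CPM. In the epithelial classes these 3 genes reached at most 254, 217 and 61.1 CPM.

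For the mean of 7 epithelial classes against the mean of 4 fibroblast subtypes, 8 members were higher and 7 lower, 50% of those tested (54% of all genes called; 23.4% higher, 30.7% lower). The share of members called is thus near that of all genes. Members lower in epithelium included Serpina3n (-6.98 log2 units, SE 0.26, edgeR adjusted p = 7.29e-15), Serpinf1 (-6.43, SE 0.25, adjusted p = 3.77e-15), Serping1 (-5.81, SE 0.33), Serpina3c (-5.20, SE 0.67), Serpinh1 (-5.08, SE 0.25) and Serpine2 (-4.72, SE 0.32). Higher were Serpinb11, Serpina7, Serpinb2 (5.91, SE 0.50), Serpinb7 (5.14, SE 0.87), Serpinb5 (4.60, SE 0.87), Serpinb6b (3.74, SE 0.23), Serpinb1a (3.58, SE 0.23) and Serpini1 (1.16, SE 0.45). Serpini1 was 1.25 log2 units higher in library 1 alone and -0.47 in library 2 alone. Serpina7 had 3 UMIs in fibroblasts, a pooled ratio of 108 (exact 95% interval 36.7 to 527, counting error only). The epithelial levels of Serpine2, 12.2 and 133 CPM in cTEC-like cells and 5.16 and 137 CPM in keratinocyte-like cells, differed between libraries, beside 36.7 and 34.6 CPM in thymocyte-like cells.

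The fibroblast subtypes were next compared with one another. Serpine2 (protease nexin-1, an inhibitor of thrombin and plasminogen activators) had 4188 and 4339 CPM in Postn fibroblasts, 2368.5 and 2225 CPM in the Cxcl14/Col15a1 subtype and 1008.5 and 886.5 CPM in the Inmt/Penk subtype. In Pi16 fibroblasts it fell to 113 and 135 CPM. No values of these 4 subtypes overlapped.

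Pi16 fibroblasts were compared with the mean of the other 3 subtypes. Here 2 members were higher and 4 lower (14.6% of all genes called; 8.28% higher, 6.3% lower). Serpine2 was lower by 3.92 log2 units (value -3.92, SE 0.66, edgeR adjusted p = 0.000143) and Serpinb6b by 2.44 (value -2.44, SE 0.55, from 7 UMIs in Pi16 fibroblasts). Serpini1 had 3 UMIs in them, and the pooled ratio of the other subtypes was 15.9 (exact 95% interval 5.22 to 79.0, counting error only). Serpina3c, a clade A gene of the antichymotrypsin group, was highest in this subtype. It had 83.1 and 53.5 CPM there, 22.1 and 8.80 CPM in Inmt/Penk, 13.5 and 3.24 CPM in Postn and 1.55 and 1.99 CPM in Cxcl14/Col15a1 fibroblasts (3.60 log2 units higher, SE 0.39, adjusted p = 1.78e-06). Serpinb6a had 562.5 and 693.5 CPM, against 178 to 333 CPM in the other subtypes (1.59, SE 0.27, adjusted p = 0.000154).

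Between Inmt/Penk and Cxcl14/Col15a1 fibroblasts 3 members differed (2.95% of all genes called; 1.53% higher, 1.43% lower). Serpina3n, an inhibitor of granzyme B and leukocyte elastase, was higher in the Inmt/Penk subtype at 198 and 117 CPM against 84.0 and 60.1 CPM (1.17 log2 units, SE 0.26, edgeR adjusted p = 0.0157). Serpina3c was higher from 39 against 9 UMIs (3.20, SE 0.73). With stricter gates 0 of these members were called and without the replicate block 1. For Serpine2 the levels themselves did not overlap (1008.5 and 886.5 CPM against 2368.5 and 2225 CPM), but the difference did not pass the threshold.

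**Figure D4:**
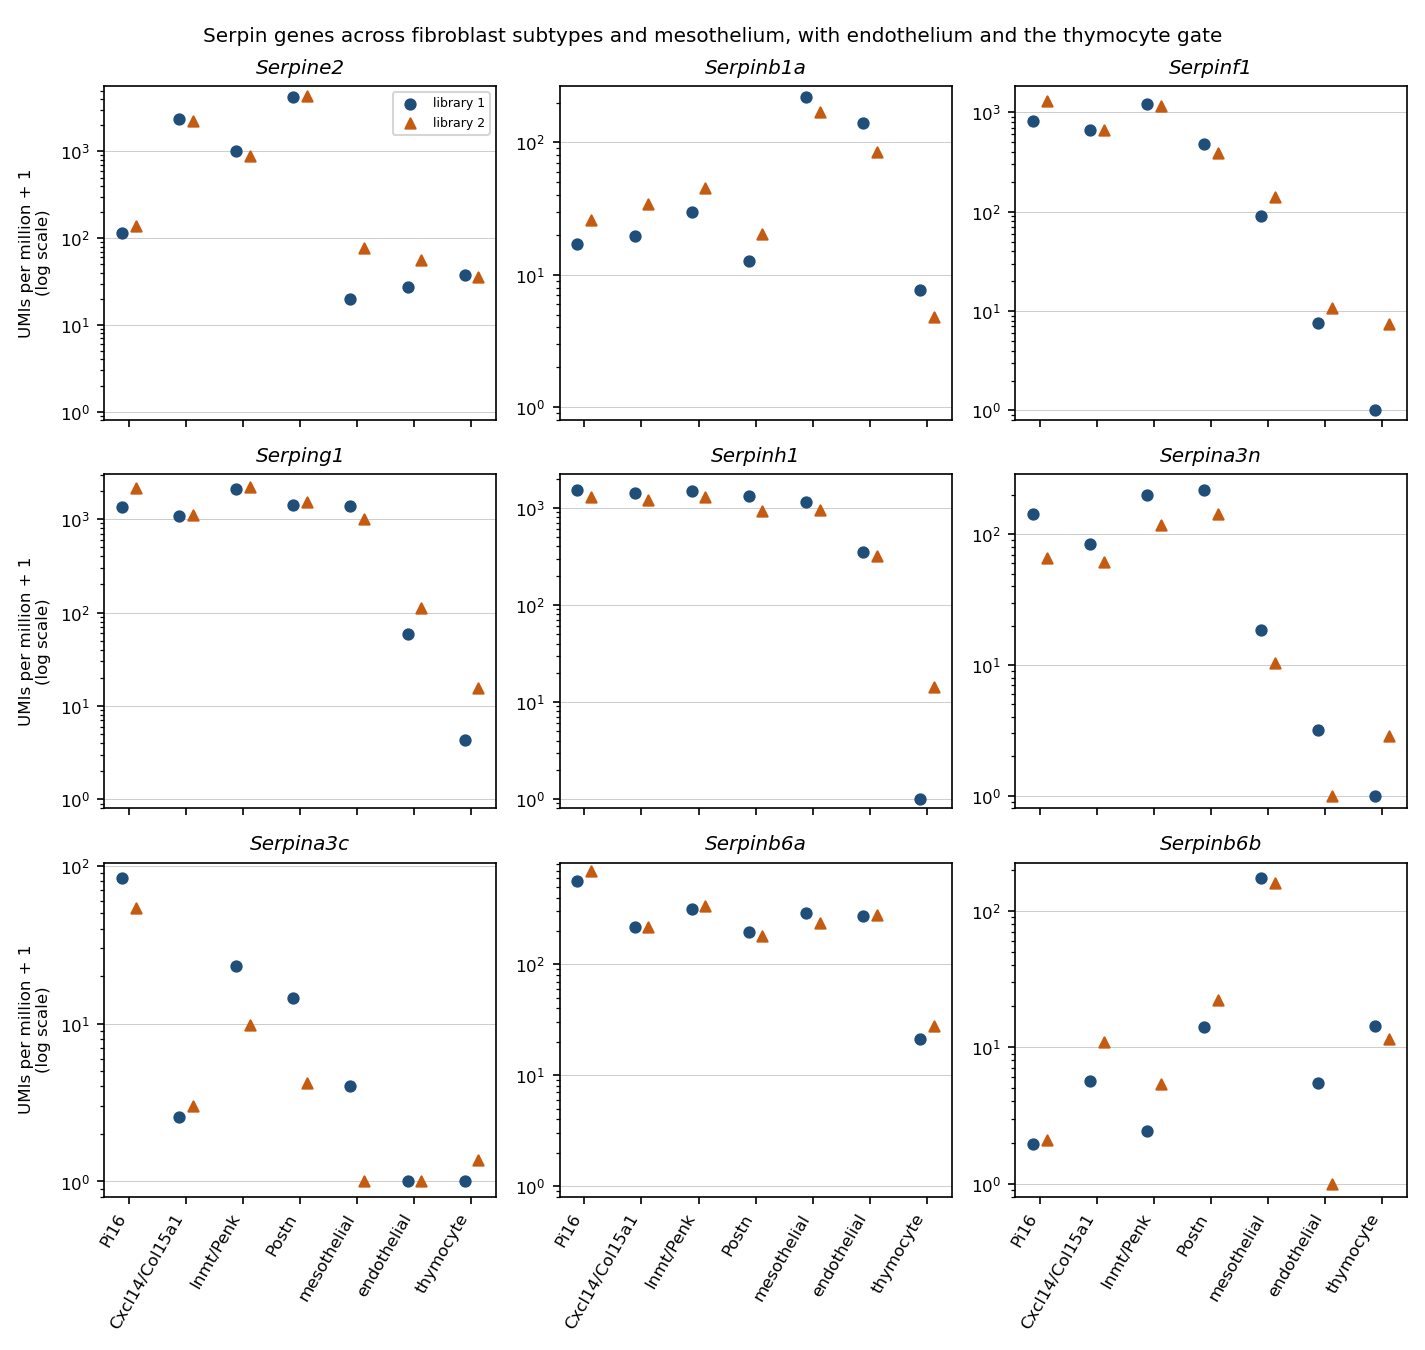
CPM plus 1 (vertical axes, log scale) of 9 serpin genes in 4 fibroblast subtypes and in mesothelial-like, endothelial-like and thymocyte-like cells, with circles for library 1 and triangles for library 2. Serpine2 falls from Postn (4188 and 4339) to Pi16 fibroblasts (113 and 135), and Serpina3c is highest in Pi16 fibroblasts (83.1 and 53.5).

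Mesothelial-like cells, the lining of the thymic capsule, had Serping1 (1374 and 1006 CPM) and Serpinh1 (1151 and 949 CPM) near the fibroblast range. They had less Serpine2, at 18.9 and 75.2 CPM. Their gate set no limit on fibroblast markers, which summed to 15401 and 13601 CPM in them, against 18022 to 33753 CPM in fibroblasts. The part of fibroblast RNA or mixed droplets in the levels and folds of this class was not tested. Against the mean of the fibroblast subtypes 3 members were higher and 5 lower (15.7% of all genes called; 8.28% higher, 7.45% lower). The higher ones were clade B genes. Serpinb6b had 174 and 160 CPM against 0.95 to 21.1 CPM in fibroblasts (5.27 log2 units, SE 0.27, edgeR adjusted p = 2.97e-12). Serpinb1a had 219 and 169 CPM against 11.7 to 44.0 CPM (3.10, SE 0.33, adjusted p = 3.61e-07), and Serpinb9 145 and 113 CPM against 24.3 to 84.2 CPM (1.39, SE 0.25). Lower members included Serpine2 (-5.14, SE 0.80), Serpina3n (-3.08, SE 0.36), Serpinf1 (-2.90, SE 0.45) and Serpina3g. For Serpina3g, 1 UMI was found in mesothelial-like cells, a pooled ratio of 42.0 in favour of fibroblasts (exact 95% interval 7.50 to 1661, counting error only). Mesothelial-like cells of library 2 numbered 25, and 17 UMIs stood behind their Serpinb6b level.

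Serine and cysteine proteases, the targets of serpins and their relatives, were followed as a list of 43 genes, of which 26 were tested. In Aire-expressing cells against the other non-mimetic epithelium 15 were higher and 3 lower (22.7% and 15.9% of all genes), with a median log2 fold of 2.41 beside 0.03 for all genes. As with the serpins, genes that passed the filter on low counts through the class in question alone had to be higher in it. Counts and medians of this list therefore describe the 26 tested genes only. Klk7, the kallikrein of the cornified layer, had 49.2 and 79.8 CPM in Aire-expressing cells (7.41 log2 units higher, SE 0.60). In keratinocyte-like cells 8 of 26 were higher than in the other mimetic classes and 0 lower (6.95% and 1.53% of all genes). Klk7 had 524 and 329 CPM there and 0 UMIs in the other mimetic classes, and Klk8 had 63.6 and 164 CPM (6.43, SE 0.70). In microfold-like cells 3 were higher and 2 lower (6.58% and 2.7% of all genes). These included Ctss (cathepsin S), at 239 and 297 CPM (2.35, SE 0.42), and Prss2 (a trypsin), at 64.4 and 45.6 CPM (7.07, SE 1.33). The class held 372634 and 87629 UMIs in all, so the Prss2 levels rest on few UMIs, above all in library 2. In epithelium against fibroblasts 5 were higher, such as St14 (matriptase, 6.40, SE 0.40), and 11 lower, such as Htra3 (-6.61, SE 0.30) and C1ra (-6.59, SE 0.25), the complement protease that Serping1 inhibits. Of all genes 23.4% were higher and 30.7% lower there, 54% in all.

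Of 14 receptors and cofactors of serpins, 13 were tested. In epithelium against fibroblasts 2 were higher and 10 lower (23.4% and 30.7% of all genes). Among the lower genes, Lrp1, the endocytic receptor for serpin-protease complexes, had mean levels of 16.2 and 19.8 CPM in epithelium and 653 and 513 CPM in fibroblasts (-5.41 log2 units, SE 0.23). Thbd (thrombomodulin) was lower by 6.88 log2 units (value -6.88, SE 0.29). In Pi16 fibroblasts 5 were higher and 3 lower (8.28% and 6.3% of all genes). There Vtn (vitronectin, an adhesive plasma protein) had 5.89 and 10.2 CPM against 104 and 129.6 CPM in the other subtypes (-3.03, SE 0.53), and Procr, the protein C receptor, was higher (3.42, SE 0.30). In mesothelial-like cells 5 were higher and 5 lower (8.28% and 7.45% of all genes), led by Lrp2 (megalin) at 157 and 94.0 CPM against 0.12 and 0 CPM (9.78, SE 0.62).

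Protease inhibitors of other families were tested for 19 of 23 genes. In keratinocyte-like cells 9 were higher than in the other mimetic classes and 0 lower (6.95% and 1.53% of all genes), with a median of 1.99 log2 units beside 0.13 for all genes, among them Stfa2 and Stfa3 (stefins) and Csta1 (5.09, SE 1.02). Genes that passed the filter through the class in question alone had to be higher here too, so counts and median describe the 19 tested genes only. In Aire-expressing cells 10 were higher and 2 lower (22.7% and 15.9% of all genes). Slpi, an inhibitor of neutrophil elastase, had 205 and 129.8 CPM in them (8.64, SE 0.84). It was also higher in mesothelial-like cells than in fibroblasts (10.1, SE 0.54), at 1673 and 254 CPM. In tuft-like cells 0 were higher and 7 lower (9.63% and 8.3% of all genes), including Spink1 (-5.57, SE 0.88) and Timp3 (-4.66, SE 0.45).

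The folding and modification machinery for collagen, with which Serpinh1 works, held 22 genes, all tested. Of these 20 were lower in epithelium than in fibroblasts and 0 higher (30.7% and 23.4% of all genes), with a median of -2.91 log2 units, beside -5.08 for Serpinh1. Examples were Kdelr3 (-7.30, SE 0.30), Fkbp10 (-5.88, SE 0.35) and Plod1 (-4.90, SE 0.23). In Pi16 fibroblasts 1 was higher and 3 lower than in the other subtypes (8.28% and 6.3% of all genes), and Plod1 had 39.7 and 31.0 CPM against 138 and 136 CPM (-1.66, SE 0.27). In microfold-like and secretory-like cells 0 of 22 were called against the other mimetic classes (9.28% and 2.8% of all genes).

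The remaining members were sparse. The 11 that did not pass the filter were Serpina1b, Serpina1c, Serpina11, Serpinb1b, Serpinb1c, Serpinb6c, Serpinb6d, Serpinb6e, Serpinb9b, Serpinb13 and Serpind1. Serpinb9b had 91 and 12 UMIs in Aire-expressing cells and at most 35 and 3 in any other class of the fit. Serpinb13 had 32 and 2 UMIs there. Serpinb6d had 27 UMIs, all in library 1 and 24 of them in 1 ungated cell. Serpina1b, an alpha-1 antitrypsin gene, was highest in endothelial-like cells at 13.3 and 9.70 CPM, from 6 and 3 UMIs. Serpinb3a passed the filter and was highest in cTEC-like cells, with 37.4 and 16.7 CPM from 55 and 6 UMIs, and no comparison called it. Serpina3i was highest in Ccl21a-high cells (39.1 and 37.8 CPM). Serpina1e was called in no comparison. Identical words in the last bases of transcripts were counted, as copies of a gene can split reads. Sharing through sequence with mismatches, or further upstream in a member, was not looked at. Over the last 500 bases of each member's coding transcripts, 42.5% of 90-base words of Serpina11 also occurred in another gene, 15.3% for Serpina1c, 7.18% for Serpina3g and 2.27% for Serpina1b, and none for the other 37 members. The shared words of Serpina3g occurred in Serpina3f, Serpina3h and Serpina3i, so those of the 37 that are its neighbours are not free of sharing.

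**Figure D5:**
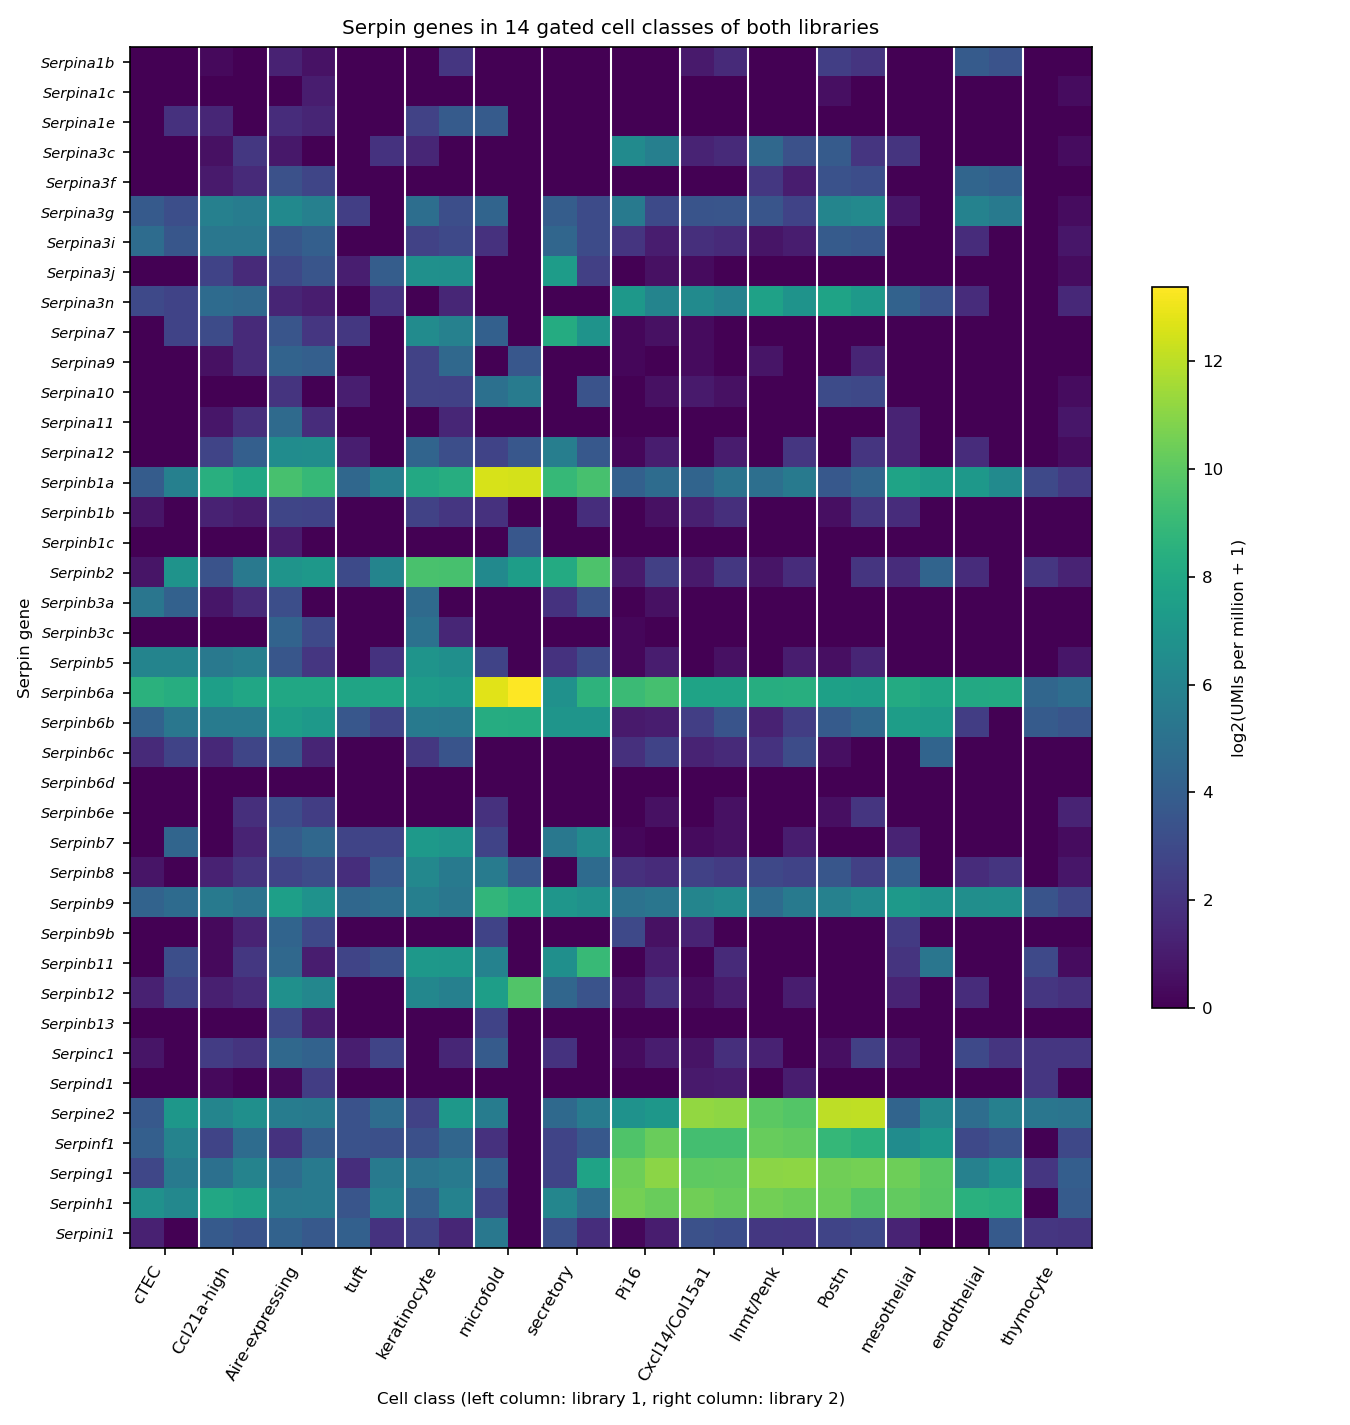
Levels of 40 serpin genes (rows) in 14 cell classes (columns, library 1 left and library 2 right within each) as log2 of CPM plus 1. Serpinb6a and Serpinb1a are brightest in the microfold-like class, and Serpine2, Serpinf1, Serping1 and Serpinh1 form the bright block over the fibroblast subtypes.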

How the data were processed

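Droplet single-cell RNA sequencing of CD45-depleted thymic stroma gave 2 libraries of 1 genotype. The matrices hold unnormalised UMI counts, as deposited by the authors. Cell Ranger 6.0.0 stands in them, per the file headers, whereas Cell Ranger 7, Seurat 4 and build mm10 come from the submitters' processing notes. No source used here states a barcode filter before deposit.

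Barcodes with at least 1000 UMIs, at least 500 genes and at most 10% mitochondrial UMIs were kept. Each cell was gated on fixed marker genes, with limits on markers of other lineages. The mesothelial-like and mural-like gates set no limit on fibroblast markers. A cell past several gates went to the one it exceeded most, if by at least 1.5 times the next. Marker thresholds were set after the marker distributions had been seen; no serpin was used. No doublet caller was run, so doublets within a lineage remain. The members and lists were chosen with earlier results of these data known.

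Counts were summed per class and library (14 classes, 28 sums) and fitted once with edgeR 4.0.16 in R 4.3.3 (quasi-likelihood test, TMM scaling, filterByExpr, library as block, 13573 genes, 13 residual degrees of freedom). Adjusted p-values are Benjamini-Hochberg values over all genes. The library blocks the fit because every class was taken from either library. The p-values measure how far class differences varied between the 2 libraries once the block had removed their overall difference. Whether different animals gave the 2 libraries is not in the labels, so this spread may be technical. Contrasts average log levels over classes with equal weight. Standard errors (SE) were taken as the absolute log2 fold over the square root of the F statistic. Folds against 0 UMIs use a floor of 3 UMIs, pooled over the side compared. Intervals and floors cover counting error only. The script was tested on simulated data.

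Named were, in each comparison, up to 10 called members by size of fold with at least 10 UMIs on the higher side, the 3 highest members of each class, members of at least 50 UMIs with 50% of their summed CPM in 1 class, and up to 4 called genes of each other list. Alternatives were DESeq2 1.42.0, no TMM, no low-count filter, no replicate block, stricter cells or gates, looser lineage limits, Leiden clusters (scanpy 1.11.5, resolution 2) and each library alone. A comparison of protein sequences was planned, but protein sequences were not used here. Counts cover all members, and 1 of them is not reported here by name.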

Additional observations from a re-analysis of the deposited data

How the results depend on the processing

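Of 563 recomputed calls of named members, 502 were kept, and 45 of 79 pairs of member and comparison were kept in every setting with a test. DESeq2 kept 57 of 77, library totals without TMM 75 of 79, no low-count filter 79 of 79, stricter cell filters 27 of 28, stricter gates 53 of 63, looser lineage limits 73 of 79 and clusters 65 of 79. The fit without the replicate block kept 73 of 79. Counts of called members moved by over 1.5 times in few cases, whose cause was not tested. Without the low-count filter they were 21 (13 in the chosen fit) for mimetic against Aire-expressing, 11 (7) for microfold-like, 10 (5) for secretory-like and 5 (3) for Inmt/Penk. DESeq2 called 7 (11) in keratinocyte-like, 3 (5) in secretory-like and 1 (3) in Inmt/Penk. For Inmt/Penk, 1 was called without the replicate block and 0 with stricter gates. Without that filter the median log2 fold of all genes moved from -0.17 to -0.69 for mimetic against Aire-expressing. Direction turned for Serpini1 (epithelium against fibroblasts, -0.47 without replicate 1, 1.25 without replicate 2), for Serpinb11 (Aire-expressing, -1.35) and for Serpini1 (microfold-like, -1.31) without replicate 1 (3.99 and 2.15 without replicate 2), for Serpina7 in mimetic against Aire-expressing with stricter gates (-0.95) and clusters (-0.65), for Serpina7 in secretory-like cells with clusters (-1.09) and for Serpina12 in tuft-like cells with clusters (0.17). Each library alone leaves no residual degrees of freedom and gives values without a test. Stricter cell filters were not run for the mimetic classes and mesothelium, nor stricter gates for secretory-like cells and mesothelium, for want of cells. Without TMM the median of all genes moved from 0.06 to -0.12 for Pi16 and from -0.16 to -0.29 for microfold-like cells.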
